A study of Mus musculus with 265 samples.

Results

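The genes described here encode CD surface antigens, the membrane proteins by which white blood cells are sorted and named. Their members were the accessible regions whose nearest protein-coding start site lay within 50 kb and belonged to a gene named Cd followed by a number, with or without a short suffix. Cd44, Cd79a and Cd79b were left out. The rule found 87 of 20103 regions, assigned to 36 genes of the 84 antigen genes of this name pattern in the annotation. Open chromatin was read out per cell with single-cell ATAC-seq, in which a transposase inserts sequencing adapters into accessible DNA, from mouse B3 cells. These are a pre-B cell line that carries an inducible Ikaros, a B-cell transcription factor fused to the ERt2 hormone-binding domain, so that 4-hydroxytamoxifen (4OHT) brings it into the nucleus. Both groups carried this construct. The 0-hour cells were collected before induction, and the 24-hour cells after 24 hours of 4OHT with a further dose midway. The labels give no vehicle-treated or uninduced 24-hour group, so time in culture, the drug and Ikaros cannot be told apart.

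Each time-point was captured in 2 Fluidigm C1 microfluidic runs, which here are the replicates. The 0-hour runs held 48 and 47 cells and the 24-hour runs 60 and 72. The 4 runs held between 92639 and 164357 counts, and the median cell held 2898 counts in 0-hour run 1 against 1676 to 1840 in the other 3, so this run was sampled more deeply per cell. No 2 of the 227 cells had identical profiles. Nothing says that runs came from separate cultures, so p-values measure the spread between runs. Of 10 pre-B marker genes, 9 had a region, and 8 had one within 1 kb of their start site, among them Pax5, Ebf1, Igll1 and Vpreb1. Of 5 stromal markers, none had a region. Of 6 T-cell markers, 3 had a region (Lat within 1 kb), of 6 myeloid markers only Lyz2 had one, and of 5 erythroid markers 1 had one, over 1 kb away.

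CD antigens are a naming system rather than a protein family. They include co-receptors that tune antigen receptor signalling (Cd22, Cd72), receptors of helper signals and microbial products (Cd40, Cd180), tetraspanins that organise membrane proteins (Cd37, Cd81, Cd82), and adhesion or complement-regulating proteins found on most blood cells (Cd47, Cd46). A pre-B cell carries the antigens of its lineage and lacks those of mature T cells and myeloid cells. Each gene was placed in a class from this general knowledge: B lineage, T and NK cells, myeloid cells, progenitor or stromal cells, and broad for antigens shared by many types. Some B-lineage genes are also used elsewhere, such as Cd93 in myeloid and endothelial cells, and Cd40 and Cd80 in other antigen-presenting cells.

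The following mm10 sequences show the regions that the results turn on, all read on the plus strand. Coordinates are those of the deposited file, read as 1-based with both ends included, since the file does not state its counting. Capitals mark GGGAA, the core of the Ikaros motif, or its reverse complement TTCCC. The Cd72 region, the intronic Cd47 region and the Cd180 exon region were chosen by rule as a B-cell start site and as the lowest p in each direction. The other 3 were added after their values were seen.

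Cd180, chr13:102693366-102693514, 118 bp upstream of the start site, detected in more cells than any other antigen region: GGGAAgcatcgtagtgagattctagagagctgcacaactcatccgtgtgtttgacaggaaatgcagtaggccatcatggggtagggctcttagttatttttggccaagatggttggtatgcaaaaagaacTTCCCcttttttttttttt

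Cd180, chr13:102693738-102693762, coding exon, the lowest p among regions higher at 24 hours: cttcttggccagttgccgagccacc

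Cd72, chr4:43454696-43454804, 122 bp upstream: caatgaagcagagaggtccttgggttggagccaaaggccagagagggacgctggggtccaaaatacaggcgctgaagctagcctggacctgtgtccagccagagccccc

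Cd47, chr16:49818713-49818857, intron, the lowest p of all members: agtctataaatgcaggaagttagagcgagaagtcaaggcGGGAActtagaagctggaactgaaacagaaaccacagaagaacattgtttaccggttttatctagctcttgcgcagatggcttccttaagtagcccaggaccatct

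Cd28, chr1:60702803-60702949, 13924 bp upstream: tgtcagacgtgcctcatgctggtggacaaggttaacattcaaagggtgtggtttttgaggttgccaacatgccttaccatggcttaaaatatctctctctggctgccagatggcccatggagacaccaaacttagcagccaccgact

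Cd69, chr6:129284493-129284623, 9122 bp upstream: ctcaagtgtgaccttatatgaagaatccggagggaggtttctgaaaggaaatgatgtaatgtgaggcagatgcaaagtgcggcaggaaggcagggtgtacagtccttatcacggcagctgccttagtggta

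GGGAA occurred on either strand in 28 of the 87 member regions (32.2%), in 11 of 35 B-lineage regions (31.4%) and in 8 of 20 regions of other lineages (40%), against 35.6% of all 20103 regions. A longer palindrome, TCCC and GGGA set 2 bases apart, overlaps the first motif in its GGGA and occurred in 1 member region (1.15%), against 2.15% of all regions. CAGGTG, a core that E-box proteins bind, occurred in 9 members (10.3%) against 8.26%. Member regions were a median of 131 bp wide against 141 bp for all regions, so the windows searched were not equal in length. The shares in members lay near those of all regions for each of these motifs.

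Regions at start sites were found mainly for B-lineage and broad antigens. Of 14 B-lineage antigen genes, 11 (78.6%) had a region and 7 (50%) had one within 1 kb of the start site: Cd180, Cd93, Cd1d1, Cd24a, Cd37, Cd40 and Cd72. Of 23 broad antigen genes, 13 had a region and 10 (43.5%) had one within 1 kb. Of 47 genes of other lineages, 12 (25.5%) had a region and only Cd5 (2.13%) had one within 1 kb. The start site here is the 5′ end of the gene, and other transcripts can start elsewhere. A Cd28 region lay 3 bp and the Cd3d region 766 bp from a protein-coding transcript start of their gene. Over all 21924 protein-coding genes, 45.1% had a region and 34.4% had one within 1 kb. These are counts of annotated genes, described without a test.

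**Figure D1:**
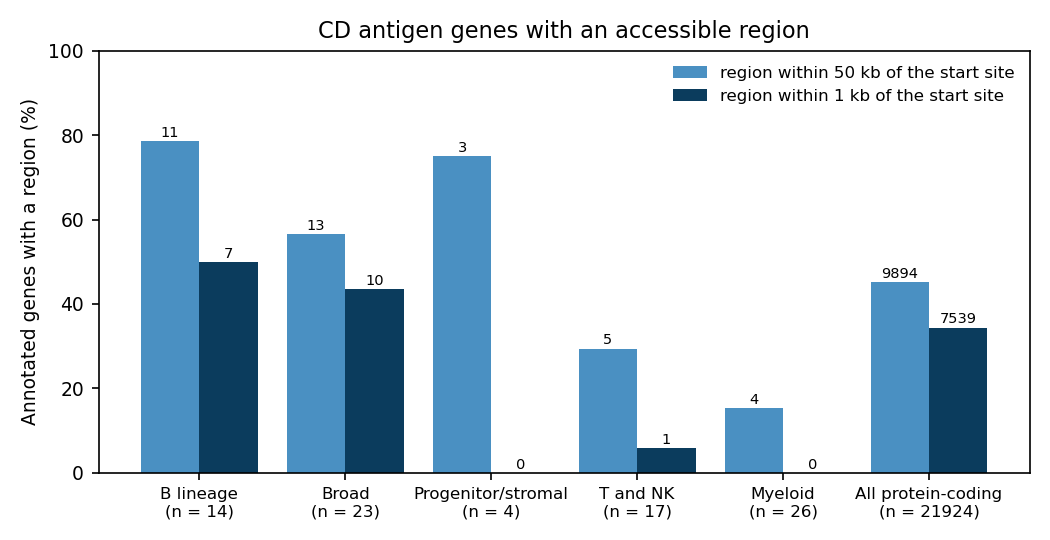
Percent of the annotated genes of each antigen class with at least 1 region assigned to them, within 50 kb (light bars) or within 1 kb (dark bars) of the start site (5′ end of the gene), with the number of genes above each bar. The dark bar reaches 50% in the B lineage and 43.5% in the broad class, and it is 5.88% for T and NK antigens and 0 for myeloid and progenitor or stromal antigens.

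Among T and NK antigens, Cd28, Cd3d, Cd5, Cd244a and Cd247 had a region, and 12 others had none, including the co-receptor genes Cd4, Cd8a and Cd8b1 and the T-cell receptor chains Cd3e and Cd3g. Among 26 myeloid antigens, Cd33, Cd163, Cd209f and Cd209g had a region each, none within 1 kb. The progenitor or stromal antigens Cd34, Cd248 and Cd276 had 5 regions, also none within 1 kb. Of the 35 genes of other lineages without a region, 23 had no region at all within 50 kb of their start site, and 12 had one that lay nearer to another gene's start. The nearest region to Cd4, for example, lay 15555 bp away and was assigned to Lag3. The matrix lists regions with signal in at least 5 cells and rests on peaks called in bulk samples, so a gene without a region is one without a peak past those steps.

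The 3 B-lineage genes without a region were Cd22, an inhibitory co-receptor, and Cd83 and Cd86, proteins of activated antigen-presenting cells. The nearest region to Cd22 lay 38082 bp from its start site and had Ffar3 as its nearest gene. No region lay within 50 kb of Cd83 or Cd86. Among broad antigens, Cd9, Cd55, Cd63, Cd70 and Cd200 were among the 10 genes without a region. The start site of Cd274, the gene for the checkpoint ligand PD-L1, lay 64 bp from a region whose midpoint was closer to Plgrkt, so the rule did not count it.

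Antigens with other symbols gave like counts. Of 20 B-lineage surface antigens not named Cd plus a number, 13 had a region and 8 had one within 1 kb, including Ptprc (CD45), Il7r (CD127), Fcgr2b (CD32), Cr2 (CD21) and Cxcr4 (CD184). Of 20 such antigens of other lineages, 6 had a region and 2 had one within 1 kb, Klrd1 and Ly75. Ms4a1 (CD20) and Fcer2a (CD23), antigens of later B cells, were among the B-lineage genes without a region. These lists were drawn up with earlier results of the data known.

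By place, 41 of the 87 member regions lay between genes, 24 in introns, 16 in untranslated regions, 3 in coding exons and 3 in other exons. A member's nearest start site need not be the gene it lies in. The Cd248 region lay in an exon of Tmem151a, the Cd37 region 9115 bp downstream lay in an intron of Tead2, the Cd164 region 13760 bp upstream in Ppil6, and the Cd52 region 12873 bp downstream in Crybg2. The 4 regions with a second copy in the genome, to which reads cannot be placed with certainty, were those of Cd80, Cd33, Cd209f and the Cd180 region 221 bp upstream.

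Signal was sparse. The member regions had signal in 5 to 45 of 227 cells, with a median of 4.41% of cells against 5.73% for all regions. Shares below are percentages of a run's cells, always in the order run 1 and run 2 of 0 hours, then run 1 and run 2 of 24 hours. A share of 0 in these runs allows up to 6.25%, 6.38%, 5% and 4.17%, from 3 cells of each run, for counting error only.

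Cd180 encodes a leucine-rich repeat receptor of B cells related to the Toll-like receptors. It had 11 regions, from 48528 bp upstream to 6787 bp downstream of its start site, and only 5 of the 9894 genes with a region had that many or more (0.0505%), Cd180 itself included. The region 118 bp upstream had signal in 25%, 14.9%, 20% and 19.4% of cells, with the runs of the time-points overlapping (log2 change 24 hours minus 0 hours 0.13 ± 0.56 SE, edgeR adjusted p = 0.954). The intronic region 1759 bp downstream had signal in 12.5%, 8.51%, 0% and 1.39%. The 0-hour runs lay above the 24-hour runs there, but the test did not pass after adjustment (log2 change −3.78 ± 1.34 SE, edgeR adjusted p = 0.236). The change was −2.99 without 24-hour run 1. Without 24-hour run 2 it was −6.08, with the remaining 24-hour run at 0. Several regions of this locus were high in 24-hour run 2 alone. The 25 bp region in a coding exon, 192 bp downstream, had signal in 2.08%, 0%, 1.67% and 16.7% of cells (log2 change 3.61 ± 1.43 SE, edgeR adjusted p = 0.291), and without 24-hour run 2 the change was 1.86. The region 28199 bp upstream had 2.08%, 2.13%, 3.33% and 12.5%, and the 32 bp region 221 bp upstream had 6.25%, 2.13%, 1.67% and 11.1%. The region 27444 bp upstream showed the opposite, with 10.4%, 12.8%, 8.33% and 0%. Summed over the 11 regions, Cd180 had 510 and 493 CPM (counts scaled to 1e+06 per run, with TMM) at 0 hours and 444 and 466 at 24 hours. The log2 change was −0.14 ± 0.35 SE (edgeR adjusted p = 0.929). Single regions hold fewer counts than this sum, so their counting error is larger.

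**Figure D2:**
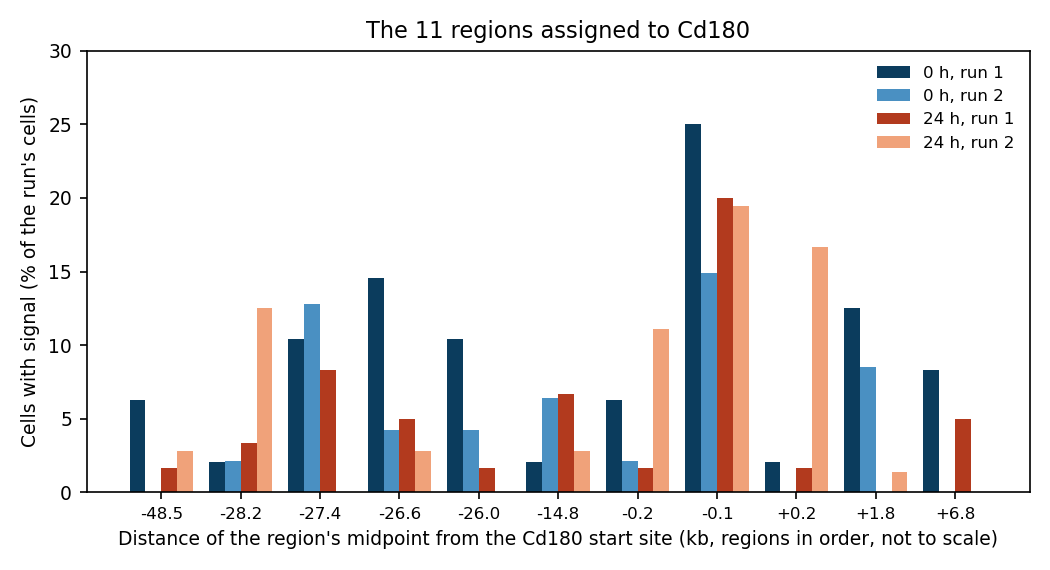
Percent of each run's cells with signal (vertical axis) in the 11 regions assigned to Cd180, ordered by the distance of their midpoint from the start site in kb (horizontal axis, not to scale); each bar is 1 C1 run. The region 118 bp upstream has 14.9% to 25% of cells in all 4 runs, while the bars of 24-hour run 2 stand above the other 3 in the regions 28199 bp upstream, 221 bp upstream and 192 bp downstream.

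Cd93, a C-type lectin-like receptor known as AA4.1 and used to mark immature B cells, had the lowest p of the B-lineage start-site regions. The region 34 bp downstream, in an untranslated region, had signal in 22.9%, 21.3%, 5% and 1.39% of cells. Over the time-points that was 22.1% of 0-hour cells (95% Clopper-Pearson interval 14.2 to 31.8) and 3.03% of 24-hour cells (0.832 to 7.58), and the intervals cover only counting error. The runs did not overlap, and the fitted log2 change was −2.23 ± 0.77 SE, with an edgeR adjusted p of 0.226. The other Cd93 region, 1187 bp downstream in the coding exon, had 2.08%, 6.38%, 0% and 5.56%, and its runs overlapped. Summed over both, Cd93 had 135 and 240 CPM at 0 hours and 45.3 and 63.2 at 24 hours (log2 change −1.72 ± 0.65 SE, edgeR adjusted p = 0.214).

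The start-site regions of the other 5 B-lineage genes had fitted changes under 2 SE. Cd24a encodes the heat-stable antigen, a glycoprotein high on precursor B cells. Its region 913 bp downstream had 8.33%, 2.13%, 15% and 6.94% of cells (log2 change 1.70 ± 1.02 SE, edgeR adjusted p = 0.534). That change was 0.94 without 24-hour run 1 and 2.48 without 0-hour run 1. The region 475 bp upstream had 8.33%, 0%, 6.67% and 1.39%, and the 28 bp region 240 bp downstream 6.25%, 2.13%, 0% and 1.39%. The fitted changes of these Cd24a regions lay on both sides of 0. For Cd72, a co-receptor that binds SHP-1, the region 20 bp upstream had 10.4%, 4.26%, 3.33% and 2.78% and the region 122 bp upstream 6.25%, 4.26%, 1.67% and 4.17%. Cd40, the receptor of T-cell help, had 8.33%, 4.26%, 6.67% and 2.78% at the region 389 bp upstream and 6.25%, 0%, 1.67% and 1.39% at the region 50 bp upstream. In all 4 of these regions the fitted change was under 1 SE. The tetraspanin Cd37 had 18.8%, 2.13%, 6.67% and 0% at the region 290 bp upstream, and the lipid-presenting Cd1d1 had 16.7%, 6.38%, 11.7% and 2.78% at the region 273 bp downstream. In both regions the runs of the time-points overlapped.

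**Figure D3:**
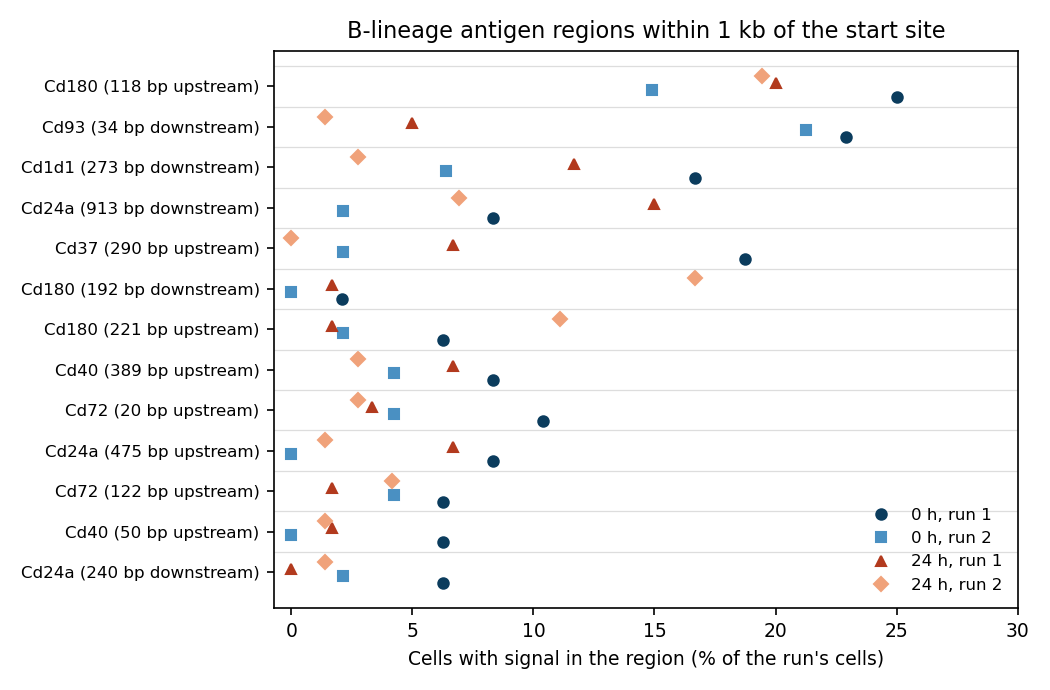
Percent of each run's cells with signal (horizontal axis) in the 13 B-lineage regions within 1 kb of their start site, 1 row per region and 1 point per C1 run, with rows ordered by the share of all cells. The Cd93 region reached 22.9% and 21.3% of cells before induction but 5% and 1.39% after it, and in most other rows the points of the time-points are mixed.

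Away from start sites, the Cd37 region 9115 bp downstream had 6.25%, 2.13%, 5% and 4.17%. In counts scaled for depth both 24-hour runs were higher there, while the shares of cells overlapped (log2 change 0.92 ± 1.10 SE, or 0.47 to 1.93 as either 0-hour run was left out). The Cd72 region 2589 bp upstream was detected evenly, in 8.33%, 8.51%, 10% and 8.33% of cells. Cd38 had 1 intronic region, Cd80 had 1 intronic region with 8.33%, 6.38%, 0% and 2.78%, and Cd74, the invariant chain of class II antigen presentation, had 3 regions, none within 1 kb and each in at most 13 cells. Cd74 as a whole had 99.2 and 101 CPM at 0 hours and 90.6 and 31.6 at 24 hours.

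Cd28, the co-stimulatory receptor of T cells, had the lowest adjusted p of the 36 genes. Its 5 regions held 50 and 28 counts before induction and 14 and 13 at 24 hours, or 354 and 354 CPM against 127 and 103. The log2 change was −1.62 ± 0.47 SE, with an edgeR adjusted p of 0.0812. The region 13924 bp upstream had signal in 20.8%, 14.9%, 5% and 1.39% of cells (log2 change −2.03 ± 0.88 SE, edgeR adjusted p = 0.320), and the change was −3.58 when 24-hour run 1 was left out and −1.25 when run 2 of that time-point was. The intronic region 15348 bp downstream had 8.33%, 4.26%, 0% and 0%, and the 0 of 132 cells at 24 hours allows a share of up to 2.27%. The region 29555 bp downstream had 22.9%, 6.38%, 8.33% and 4.17%, so that its runs overlapped, whereas those of the other 4 regions did not. None of the 5 lay within 1 kb of the gene's 5′ end, from which these distances are measured. The region 29555 bp downstream, however, lay 3 bp from the start of a protein-coding Cd28 transcript. The other 4 lay 9198 to 43482 bp from the nearest such start.

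The Cd244a region 7688 bp upstream had 12.5%, 10.6%, 5% and 0% of cells (log2 change −1.75 ± 1.13 SE, edgeR adjusted p = 0.574). Without 24-hour run 2 the change was −0.73, and without 24-hour run 1 the remaining 24-hour run is at 0 and the fitted −5.88 depends on the prior count. The 2 intronic regions of this SLAM-family receptor overlapped in their shares, although in CPM both 24-hour runs were higher at the region 5251 bp downstream. The Cd3d region, 4803 bp downstream in an untranslated region, had 12.5%, 6.38%, 5% and 4.17%. Cd5, a negative regulator found on T cells and some B cells, had 2.08%, 0%, 3.33% and 2.78% at its start site, 5 cells in all. Both 24-hour runs were the higher ones there, with a log2 change of 2.59 ± 1.68 SE (edgeR adjusted p = 0.574). Cd247, the zeta chain of the T-cell receptor complex, also had signal in only 5 cells.

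Of the myeloid antigens, Cd33, a sialic acid-binding receptor, had 33.3% of cells in 0-hour run 1 but 6.38%, 8.33% and 4.17% in the other runs. This region has a second genomic copy, and 0-hour run 1 was the deepest. Cd163, the haemoglobin scavenger receptor, had 4.17%, 0%, 0% and 6.94%. The lectins Cd209f and Cd209g had 6.25%, 2.13%, 1.67% and 2.78%, and 2.08%, 0%, 5% and 2.78%. The lowest edgeR adjusted p of these 4 regions was 0.547, that of Cd33.

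Of the progenitor or stromal antigens, Cd276, an immune checkpoint protein of the B7 family, had 12.5%, 8.51%, 1.67% and 1.39% at an intronic region 13421 bp downstream. Its runs did not overlap, and the fit gave a log2 change of −2.04 ± 1.19 SE (edgeR adjusted p = 0.516). The Cd248 region had 12.5%, 4.26%, 10% and 9.72%, with overlapping shares. Cd34, the sialomucin of haematopoietic stem cells, had 3 regions between 23542 and 38184 bp downstream. The region at 37528 bp had 8.33%, 4.26%, 3.33% and 1.39%, and that at 38184 bp had 8.33%, 0%, 3.33% and 1.39%.

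The broad antigens held 32 regions, 14 within 1 kb. Cd69, the early activation antigen, had 8 regions and the broad class's most detected region, 9122 bp upstream, with 29.2%, 25.5%, 15% and 0% of cells (log2 change −1.81 ± 0.70 SE, edgeR adjusted p = 0.277). The 24-hour runs were far from alike there, with 9 of 60 cells against 0 of 72, and without 24-hour run 2 the change was −0.76. Cd69 as a whole had 475 and 468 CPM at 0 hours and 435 and 142 at 24 hours (log2 change −0.72 ± 0.39 SE, edgeR adjusted p = 0.455). Cd47, the signal that protects cells from engulfment, had signal in 12.5%, 14.9%, 1.67% and 1.39% of cells at an intronic region 18252 bp downstream. That region had the lowest p of all 87 members, a log2 change of −3.32 ± 1.11 SE and an edgeR adjusted p of 0.210. Over its 3 regions, Cd47 had 177 and 215 CPM at 0 hours and 90.6 and 39.5 at 24 hours (log2 change −1.58 ± 0.61 SE, edgeR adjusted p = 0.235).

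The most detected tetraspanin regions overlapped between the time-points in CPM. Cd151 had 12.5%, 10.6%, 15% and 5.56% of cells 13 bp downstream of its start site. Cd81, a part of the B-cell co-receptor complex, had 14.6%, 8.51%, 6.67% and 8.33% at 58 bp downstream, and Cd82 had 12.5%, 6.38%, 15% and 4.17% at an intronic region 35922 bp downstream. In each of these 3 regions the fitted change was under 1 SE, although the shares of cells at the Cd81 region did not overlap. Cd53, the pan-leukocyte tetraspanin, had 6.25%, 6.38%, 6.67% and 4.17% at its start site. The remaining broad antigens were Cd46, Cd48, Cd52, Cd84, Cd99l2, Cd164 and Cd320, and none of them passed the test.

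Across the 87 regions, edgeR called 0 at an adjusted p under 0.05. Over all regions 3 were called with more signal at 0 hours (0.0149%) and 8 with more at 24 hours (0.0398%). DESeq2 called 0 of all 20103 regions in either direction, so its 0 members say nothing about the antigens. Before adjustment, edgeR gave p under 0.05 for 6 members higher at 0 hours, 2 each of B-lineage, T and NK and broad antigens, against a background of 7% of all regions, and for 1 member higher at 24 hours, against 5.11%. The 6 were the Cd47, Cd93, Cd180, Cd69 and both Cd28 regions above, and the 1 was the Cd180 exon region. The 6 are 6.90% of the members and the 1 is 1.15%. In CPM, the time-points did not overlap in 36 members, 23 with the higher pair of runs at 0 hours (26.4%, background 25.7%) and 13 with it at 24 hours (14.9%, background 19.3%). With 200 of 20103 simulated regions changed by a log2 of 2 and a coefficient of variation between runs of 0.4, close to the 0.419 estimated here, the same test called 0 of the 200, and with a coefficient of 0.1 it called 51. At the estimated variation between 2 runs a change of that size was thus not detected in the simulation.

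Summed per gene, edgeR called 0 of the 36 antigen genes. Of 9894 genes, 19 were called with more signal at 0 hours (0.192%) and 16 with more at 24 hours (0.162%). DESeq2 called 0 of all 9894 genes, the members included. Before adjustment 3 antigen genes, Cd28, Cd93 and Cd47, had p under 0.05 and were higher at 0 hours (background 6.23%), and 0 were higher at 24 hours (background 5.77%). Runs did not overlap in 16 genes, 12 with the higher pair at 0 hours (background 21.9%) and 4 with it at 24 hours (background 21.5%). The 4 were Cd5, Cd82, Cd209g and Cd248, none of them from the B lineage. Of the 11 B-lineage genes, 9 had a fitted change below 0, the exceptions being Cd24a and Cd38, as had 8 of the 12 genes of other lineages and 4773 of all 9894 genes.

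**Figure D4:**
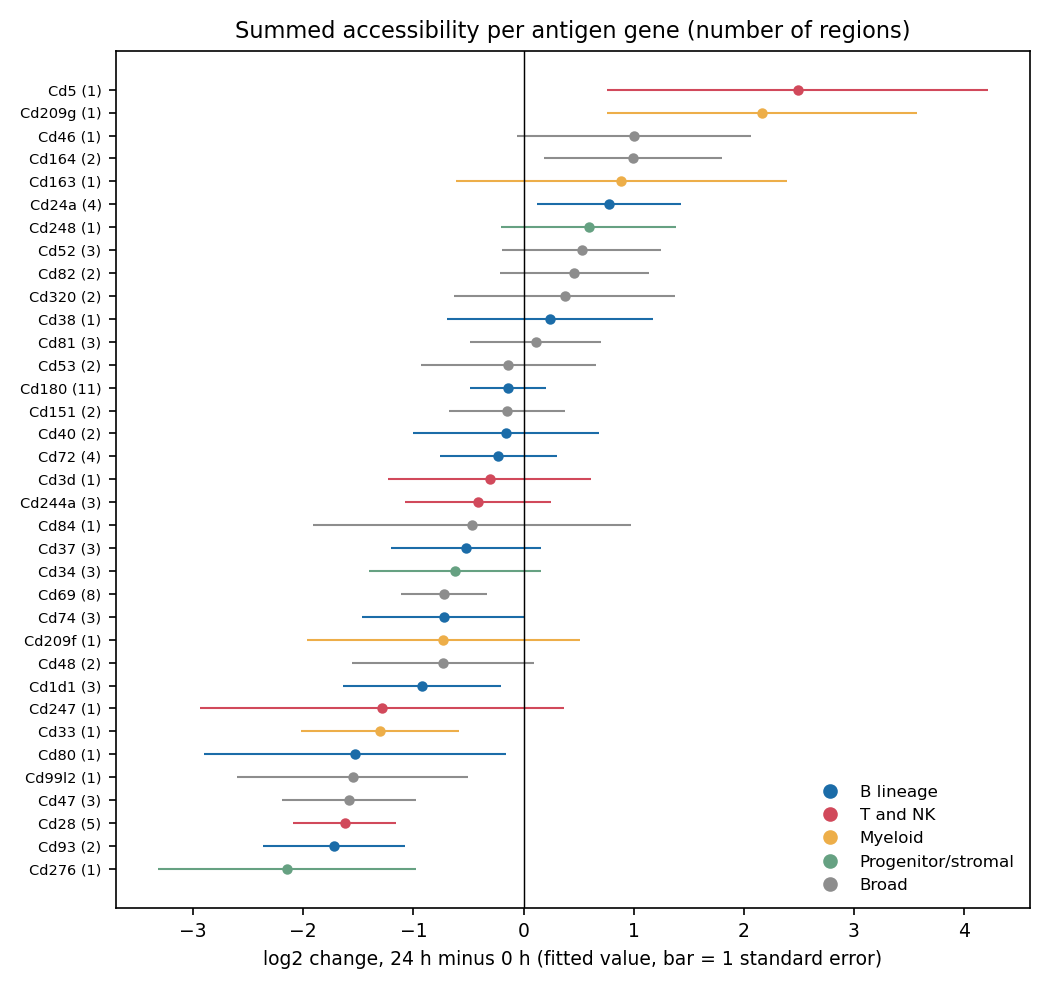
Fitted log2 change from 0 to 24 hours of the summed accessibility of 35 of the 36 antigen genes (horizontal axis, points with bars of 1 standard error), 1 row per gene with its number of regions, coloured by class. Changes run from −2.15 for Cd276 to 2.49 for Cd5, and no gene shown passed the adjusted threshold; Cd28, at −1.62, had the lowest adjusted p.

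Where a region lay mattered for the background. The median log2 change was −0.37 over the 87 members against −0.063 over all regions, but all regions beyond 1 kb of a start site had a median of −0.54 and those within 1 kb one of 0.33. The 59 distal members had a median of −0.49, near that of all distal regions. The 28 members within 1 kb had a median of −0.15, below the 0.33 of all such regions. The 13 B-lineage regions among them had a median of −0.11 and the 14 broad regions one of −0.20. Of the member regions 32.2% lay within 1 kb of the start site, against 52.4% of the regions assigned to any gene.

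Signal was then summed over the regions of each class and divided by all counts of the run. B-lineage antigens took 13.0 and 12.4 of every 10000 counts at 0 hours, then 12.3 and 8.84 after 4OHT, a log2 change of −0.27 (two-sided exact permutation p = 0.333, the smallest that 2 against 2 runs allow). The 24-hour mean of 10.6 had an SD of 2.46, since its 2 runs lay far apart. The difference from 12.7 ± 0.429 at 0 hours (SD, n = 2 runs) lay within the spread at 24 hours. Leaving out 24-hour run 2 gave −0.046 and leaving out run 1 gave −0.53, and a core list of B antigens gave −0.034. Broad antigens took 11.8, 13.2, 12.6 and 8.69, and their runs overlapped. Cd180 alone gave between 32.5% and 46.8% of the B-lineage counts of a run, and without it the B-lineage runs overlapped at 8.64, 8.20, 8.32 and 4.70.

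T and NK antigens took 4.87 and 4.43 of every 10000 counts at 0 hours and 2.86 and 2.17 at 24 hours, 1.85-fold more at 0 hours (log2 change −0.89, exact permutation p = 0.333). The runs did not overlap, and the difference of the means was larger than the SD of either time-point, 0.312 and 0.482 (n = 2 runs each). It rested on Cd28, which gave 62.5% and 68.3% of the class's counts at 0 hours and 40% and 41.9% at 24 hours. Without Cd28 the class took 1.83, 1.40, 1.71 and 1.26, and the runs overlapped. Of the 6 T-cell marker genes, Bcl11b, Thy1 and Gata3 had no region, and the regions of Tcf7, Lck and Lat together also took more at 0 hours, 1.52 and 2.48 per 10000 counts against 0.816 and 0.561, while the pre-B markers took 17.8 and 16.1 against 18.5 and 13.9. The part of other cells in the difference was not tested.

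**Figure D5:**
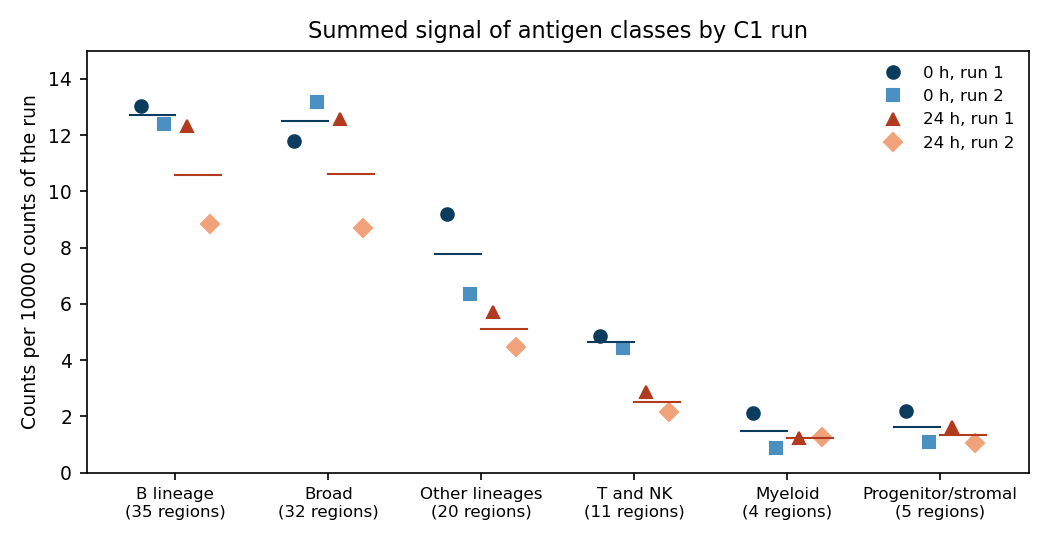
Counts in the regions of each antigen class per 10000 counts of the run (vertical axis), 1 point per C1 run, with lines at the mean of each time-point. Other lineages are the T and NK, myeloid and progenitor or stromal classes together. T and NK antigens lie at 4.87 and 4.43 before 4OHT, then at 2.86 and 2.17, and in the B-lineage class 24-hour run 2, at 8.84, lies below the other 3 runs.

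The antigens of other lineages together took 9.19, 6.37, 5.71 and 4.49 of every 10000 counts (log2 change −0.61, exact permutation p = 0.333). Leaving out 0-hour run 1 gave −0.32 and leaving out run 2 gave −0.85. The Cd28 regions left out, it was −0.22 with overlapping runs (exact permutation p = 1). Myeloid antigens took 2.13, 0.864, 1.22 and 1.26, and progenitor or stromal antigens 2.19, 1.08, 1.63 and 1.05, both with overlapping runs. The ratio of B-lineage to other-lineage counts was 1.42 and 1.95 at 0 hours and 2.16 and 1.97 at 24 hours, a log2 difference of 0.31 (exact permutation p = 0.333). The SD of the log2 ratio was 0.325 at 0 hours, so the difference was about as large as the spread between those runs. It depended on what was counted. A core list of B antigens gave 0.55 (0-hour SD 0.299) and detected or not detected regions 0.45 (0-hour SD 0.206), both larger than that spread. Thinned cells gave 0.24, leaving out regions with a second copy 0.23 and leaving out the Cd180 regions 0.17, each with overlapping runs. The Cd28 regions left out gave −0.12, also with overlap. Without 0-hour run 1 it was 0.080 and without 0-hour run 2 it was 0.54. The classes also differ in where their regions lie: 13 of 35 B-lineage regions and 1 of 20 regions of other lineages were within 1 kb of a start site, and over all regions the median log2 change was 0.33 there and −0.54 beyond. The part of this placement in the ratio was not tested.

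Region for region, the difference between the classes did not keep its sign over the runs. A B-lineage region had signal in a mean of 9.05%, 4.68%, 4.90% and 3.81% of cells, and a region of another lineage in 10.3%, 4.36%, 3.75% and 2.85%. The difference was −1.26 and 0.319 percentage points at 0 hours and 1.15 and 0.962 at 24 hours, so the time-points did not overlap. On cells thinned to 837 counts it was −0.938 and −0.0466 at 0 hours and −0.258 and 0.454 at 24 hours, with overlap. The mean over all 4 runs, which mixes the time-points, was 0.293, and −0.197 on thinned cells. The change between time-points was not tested. Beyond 1 kb of a start site the 22 B-lineage regions had 7.77%, 4.55%, 4.09% and 2.78%, and the 19 regions of other lineages 10.7%, 4.59%, 3.77% and 2.85%. The 13 B-lineage start-site regions had 11.2%, 4.91%, 6.28% and 5.56%, against 13.0%, 7.28%, 8.94% and 9.65% for all regions within 1 kb of a start site. The B-lineage start-site regions thus lay below the mean of all start-site regions in each of the 4 runs.

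Counted per cell, 89.6%, 80.9%, 66.7% and 63.9% of cells had signal in at least 1 B-lineage region, and 62.5%, 44.7%, 30% and 18.1% in at least 1 T and NK region. With every cell thinned to 837 counts, at the cost of 23 cells with fewer (0, 1, 13 and 9 by run), these shares were 64.6%, 58.7%, 55.3% and 55.6%, and 33.3%, 26.1%, 17.0% and 11.1%. For both classes the 0-hour runs stayed above the 24-hour runs at equal depth, a difference that was not tested. Broad antigens did the same, with thinned shares of 72.9%, 63.0%, 53.2% and 42.9%, and so did the mean thinned share per region over all regions beyond 1 kb of a start site, 3.22%, 3.19%, 2.61% and 2.02%. Over all start-site regions the means were 4.31%, 3.86%, 4.78% and 5.26%, and over all regions 3.70%, 3.48%, 3.56% and 3.44%, with overlapping runs. For myeloid antigens the thinned shares were 12.5%, 8.70%, 12.8% and 12.7%, and the unthinned 43.8% of 0-hour run 1 had been far above the other runs.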

How the data were processed

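Counts per region and cell were analysed for 227 single-cell ATAC-seq libraries of 2 time-points, 2 C1 runs each. The labels list 259 single cells and 6 bulk samples, and those without a column in the matrix were not used here. The authors aligned reads with Bowtie2 (mm10) and dropped duplicates with Picard. They took peaks from HOMER calls on the bulk replicates and counted each cell's signal there, with tool versions not given in the sources used here. The authors deposited counts without normalization, whole numbers of at most 2. Whether larger values were capped is not stated. All per-cell columns were used.

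Regions were assigned by their midpoint to the nearest start site (5′ end of the gene) of a protein-coding gene of GENCODE vM21. Counts were summed per run, since cells of a run are not replicates, and tested over all 20103 regions and over 9894 genes with the quasi-likelihood test of edgeR 4.0.16 (R 4.3.3). Sums were normalized by TMM, and p-values adjusted by Benjamini-Hochberg at a threshold of 0.05. Fitted log2 changes carry edgeR's prior count. DESeq2 1.42.0 was an alternative. For class sums, a two-sided exact permutation test over the 4 runs was used (SciPy 1.17.1). Same-numbered runs did not deviate together (correlation of their deviations from the time-point means −0.011), so runs were not paired. Motifs were searched on both strands, and genomic copies counted with BLAST 2.17.0 at 90% identity over 80% of a region. Doublets were not called, as capture sites had been inspected by eye. The fit was tested on simulated data: with a coefficient of variation of 0.1 it called 51 of 200 changed regions and 3 unchanged ones, and with 0.4 it called 0 and 0.

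Regions named with values were the B-lineage regions within 1 kb of a start site, the 4 most detected of every other class, those with an unadjusted p under 0.05, and up to 4 in each direction with the largest change among those whose runs did not overlap and that had signal in at least 10 cells. Other regions named were chosen after their values were seen. The values of 1 antigen gene are not reported here. The members, the classes and the lists were chosen with earlier results of these data known.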

Additional observations from a re-analysis of the deposited data

How the results depend on the processing

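Member regions or genes were called under 1 alternative only. This says little of stability, since DESeq2, DESeq2 size factors, detected or not detected and thinned cells called 0 of all regions, and DESeq2 and the cell-number offset 0 of all genes. Without 24-hour run 1 the regions called ranged from 0 to 3 at 0 hours (Cd93 34 bp downstream, Cd69 9122 bp upstream and Cd180 27444 bp upstream) and from 0 to 1 at 24 hours (the Cd180 exon region), and the genes from 0 to 3 at 0 hours (Cd28, Cd47 and Cd69). That fit leaves 1 run at 24 hours, which is assumed to vary like the 0-hour runs, and it called 1.70% and 2.27% of all regions and 2.49% and 2.85% of all genes. With a replicate block, which the check of the run numbers gave no ground for, 0 members were called in either direction, against 2 and 9 of all regions and 7 and 5 of all genes. With cell numbers as offset, the median log2 change of all regions moved from −0.063 to −0.51 and that of the members from −0.37 to −0.74.

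Class sums changed direction in a few settings. Restricted to regions within 1 kb, the log2 change was 3.14 for T and NK and for all other lineages (the Cd5 region alone) and 0.031 for broad antigens, and the detection difference moved to 4.94 percentage points. On thinned cells that difference, a mean over the 4 runs, was −0.197. Without regions with a second copy, the myeloid change was 1.97. Without each run in turn, it ranged from −0.53 to −0.046 for B-lineage, from −1.10 to −0.70 for T and NK, from −0.85 to −0.32 for all other lineages, from −0.78 to 0.53 for myeloid, from −0.71 to 0.31 for progenitor or stromal and from −0.52 to 0.0088 for broad antigens. Per cell in place of per 10000 counts, the B-lineage change was −0.69 and that of other lineages −1.10. Without the Cd28 regions, an alternative added after seeing the data, the log2 ratio of B-lineage to other lineages was −0.12, and over the other alternatives it ran from 0.080 (without 0-hour run 1) to 0.55 (a core list of B antigens).

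Of 379 alternatives for 34 named regions, 343 kept direction and side of the threshold, 3 passed it and 33 changed direction, in 15 regions, none of them called. Keeping direction does not mean a stable size: leaving out each run moved the log2 change of the Cd244a region 7688 bp upstream between −5.88 and −0.73 and that of the Cd69 region 9122 bp upstream between −7.57 and −0.76, where the low end has the remaining 24-hour run at 0. In regions that changed direction it gave ranges of −0.34 to 0.79 (Cd151), −3.60 to 4.50 (Cd163), −0.82 to 1.89 (Cd180, 221 bp upstream), −1.20 to 0.32 (Cd1d1), −1.62 to 4.54 (Cd24a, 475 bp upstream), −1.14 to 0.17 and −1.58 to 3.59 (Cd34), −0.49 to 0.31 (Cd3d), −0.91 to 0.42 and −0.63 to 3.58 (Cd40, 389 and 50 bp upstream), −1.45 to 0.30 (Cd72, 122 bp upstream), −0.096 to 0.42 (Cd81) and −0.45 to 0.67 (Cd82). With that offset, the log2 change was −0.33 (Cd180, 118 bp upstream), −0.26 (Cd82), −0.44 (Cd40, 50 bp upstream), −0.096 (Cd151) and −0.31 (Cd81). On detected or not detected it was 0.40 (Cd24a), 0.074 and −0.45 (Cd40) and −0.068 (Cd81). On thinned cells it was 3.10 (Cd24a), −1.54 (Cd180, 221 bp upstream), −1.003 (Cd40, 50 bp upstream) and 0.37 (Cd209f). DESeq2 gave 0.068 and the replicate block 0.37 for Cd24a, and the 10% filter −0.14 for Cd180 118 bp upstream. The cause of these changes was not tested. The depth, 5 to 45 cells with signal per region, limits every value for a single region.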
